A study of Mus musculus with 6 samples.

Results

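The genes described here are 10 transcripts of the p53 response and of the apoptosis machinery, measured in the dorsal forebrain of mouse embryos at E11.5 in 3 control and 3 mutant embryos. They are Mdm2, Ccng1, Zmat3, Trp53inp1, Sesn2, Bbc3, Pmaip1, Bax, Phlda3 and Aen. Their probes were found by gene symbol in the authors' deposited table, where 12 of 27295 probes carry one of these names. Its symbol column from the array maker names all 12 probes, and its other symbol column names 7 of them. All 12 probes were well above background on all 6 arrays, so that all 10 genes entered the fit, among 17091 named genes and 21067 rows in all (1 probe per gene, or per unnamed transcript). Each array holds RNA from the dorsal forebrain of a single embryo, labelled with Cy3. The labels call the genotypes control and mutant only. They give neither the mutated gene nor an allele, a Cre driver or a strain, while the title of the series speaks of Wnt/beta-catenin signalling in cortical precursors. Each of litters 1, 2 and 3 gave a control and a mutant that carry its number. Litter 1 lay on a slide of its own (slide 1), so that litter and slide cannot be told apart for that pair, and litters 2 and 3 shared slide 2.

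The p53 protein is a transcription factor that is kept scarce in unstressed cells and accumulates after DNA damage, replication stress or nucleolar stress. It then switches on genes that arrest the cell cycle, repair DNA, restrain growth signalling or trigger apoptosis through mitochondria, and it also switches on Mdm2, whose product returns p53 to degradation. In the embryonic cortex, where precursors divide fast, loss of many genes of cell division or genome upkeep is known to raise these targets and to kill precursors, so that they serve as a readout of stress in mutant forebrain. Most of them have further activators, so a level of mRNA alone does not report p53 activity.

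Between 65.8% and 70.1% of the spots of an array were well above background, and the 75th percentile of an array's signal lay between 1446 and 1833 for control embryos and between 1207 and 1380 for mutant embryos. A level below is the log2 signal minus log2 of this percentile on the same array. A difference is mutant minus control on the log2 scale, with its standard error (SE) from the limma fit, and is relative to that percentile, which was itself lower in each mutant than in any control. Differences within slide 1 rest on 1 embryo of each group. The 6 listed markers of the dorsal forebrain, among them Emx1, Emx2, Pax6, Lhx2 and Neurog2, were above background on all arrays, and so were all listed markers of meninges (8), endothelium (6), microglia (6) and erythroid cells (6). The labelled tissue was therefore present, with RNA of these other cells in it. The summed level of a marker list, on the linear scale relative to the 75th percentile, was 127 to 137 in controls and 112 to 126 in mutants for dorsal forebrain, 145 to 149 and 168 to 191 for radial glial progenitors, and 51.4 to 56.3 and 55.4 to 78.8 for neurons. For the neighbouring subpallium, whose marker Nkx2-1 was above background on no array, it was 6.49, 5.10 and 0.718 in controls 1, 2 and 3 and 7.74, 5.16 and 11.0 in mutants 1, 2 and 3, so that control 3 stood apart. For the diencephalon it was 1.20 to 1.24 in controls and 1.46 to 1.53 in mutants, without overlap, and for choroid plexus 0.378 to 2.36 and 2.04 to 3.68, with Barhl2 and Kl above background on no array. Of the 5 diencephalon markers kept, 3 had positive and 2 negative differences, with Gbx2 lower in every mutant (-0.62). Gbx2 was dim, however, with log2 levels from -7.31 to -6.08, and was above background on 3 control arrays and 1 mutant array. Of the choroid plexus markers, Ttr was not kept. Otx2 was by far the brightest of these in controls 1 and 2 (log2 levels 0.92 and 1.04) and low in control 3 (-2.77). Within litters 1, 2 and 3, Folr1 differed by 3.11, 2.91 and -1.59, and Clic6 by 2.46, 2.21 and -0.05. Aqp1 had a fitted difference of -0.11. The part of these values in the results below was not tested. In bulk tissue, a change in the number of cells of a type and a change in RNA per cell cannot be told apart.

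None of the p53 response genes passed the test. In limma over all 21067 rows, 0 of the 10 genes passed an adjusted p of 0.05 (smallest adjusted p = 0.213), against 7 of all rows, or 0.0332%. With litter as a block, 0 rows of the whole table passed, and 0 of the 10 genes. At an unadjusted p under 0.05, 2 of the 10 genes were higher in the mutants (Trp53inp1 and Ccng1), where 9.5% of all rows were, and 1 was lower (Aen), where 7.44% of all rows were. With 10 genes, these shares rest on 1 or 2 genes each. The differences ran from -0.30 for Aen to 0.46 for Trp53inp1. Of the 10, 8 were positive, where 11593 of all 21067 rows were, and the median was 0.17 against 0.02 over all rows. With median centring of the arrays both medians were lower, at 0.08 for the 10 genes and -0.06 over all rows. For 9 of the 10 genes the 95% interval of the difference, not adjusted for the number of genes, excluded a doubling or halving. Pmaip1, with an interval from -1.43 to 1.98 in this fit without a block for litter or slide, was the exception.

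**Figure D1:**
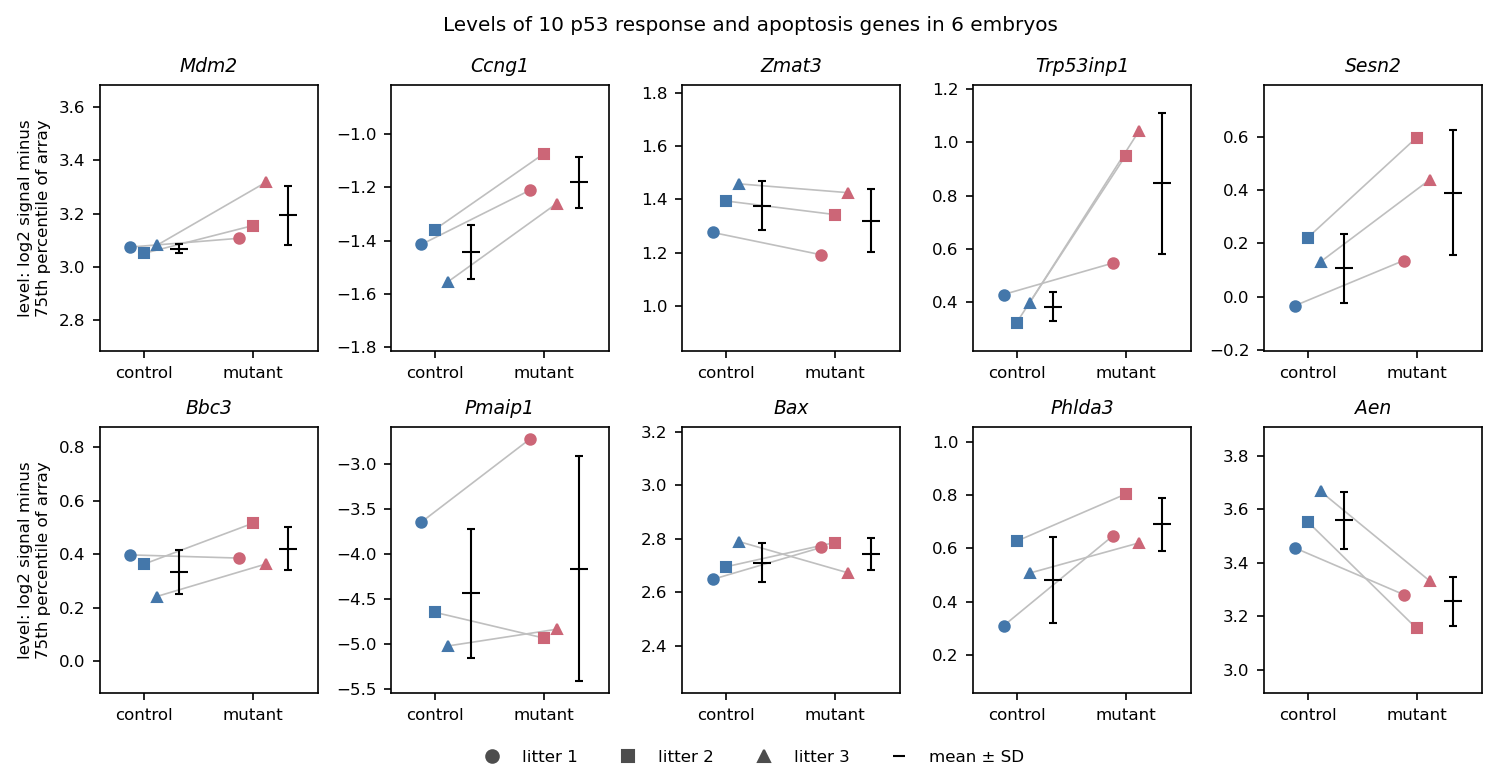
Levels of the 10 genes in each embryo (log2 signal minus the array's 75th percentile; each panel has its own axis range). Points are embryos, shapes are litters, grey lines join littermates, and bars give mean ± SD (n = 3). Controls and mutants do not overlap for Mdm2, Ccng1, Trp53inp1 and Aen, and Pmaip1 is highest in both embryos of litter 1.

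The control and mutant embryos did not overlap for 4 of the 10 genes. Mdm2, Ccng1 and Trp53inp1 were higher in every mutant than in any control, 3 of 10 genes where 13% of all rows show this, and Aen was lower in every mutant, 1 of 10 where 11.9% of rows do. Within litters, the mutant lay above its control in 7 of 10 genes in each of litters 1, 2 and 3. The median difference of the 10 genes was 0.12, 0.13 and 0.15, against 0.01, 0.01 and 0.04 over all rows. The mutant lay above in all 3 litters for 5 of 10 genes (Mdm2, Ccng1, Trp53inp1, Sesn2 and Phlda3), against 26.1% of all rows. It lay below in all 3 for 2 genes (Aen and Zmat3), against 21.3%. The other 3 (Bbc3, Pmaip1 and Bax) had a mixed sign.

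**Figure D2:**
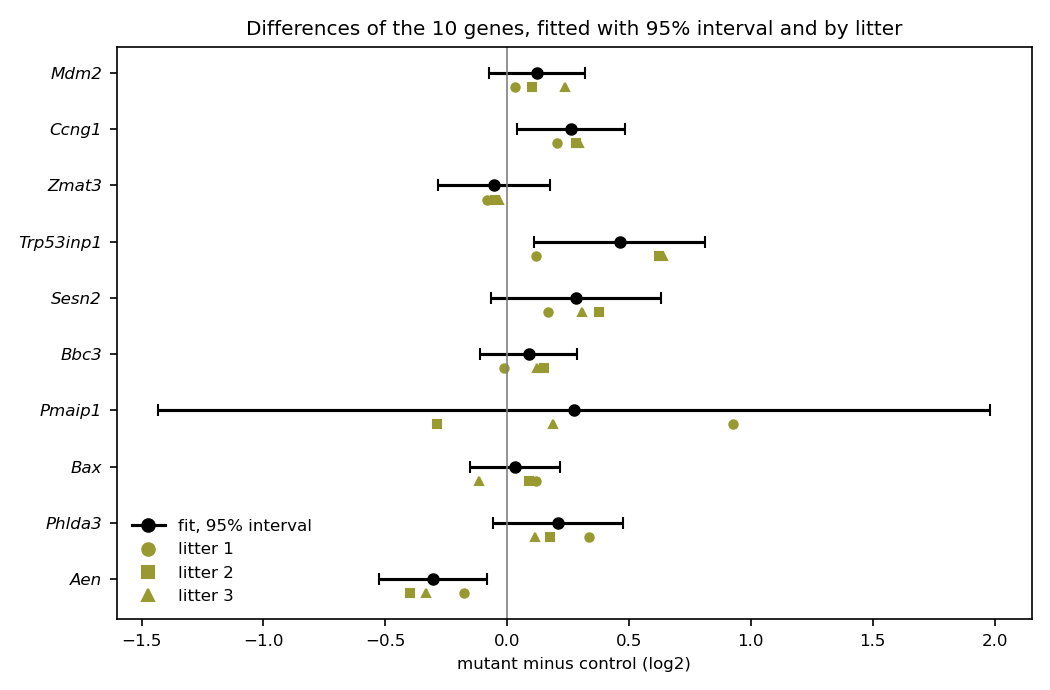
Difference of each gene, mutant minus control, on the log2 scale. Black points and bars are the fitted difference and its 95% interval, and coloured shapes are the differences within litters 1, 2 and 3. In this fit without a block for litter or slide, the interval excludes 0 for Ccng1, Trp53inp1 and Aen, and is widest for Pmaip1.

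The promoter windows of these genes were searched for the letters of a p53 half-site. RefSeq windows of 300 bases (250 before to 50 after a start site, build GRCm38.p6) were found for 7 of the 10 genes, and Trp53inp1, Pmaip1 and Zmat3 were not matched. The p53 half-site, a decamer that is its own reverse complement, was searched without mismatch, which covers both strands. It occurred in 5 of the 10 windows of these genes, where 8.36% of all 32851 windows hold it. These 5 belong to 4 genes (Mdm2, Ccng1, Bax and Aen). The 2 windows of Aen overlap and hold the same half-site, so that windows of a gene are not separate units. It was not found in the windows of Bbc3, Sesn2 and Phlda3. A match is a run of letters and not a shown binding site, and known p53 sites of several of these genes lie outside such a window, as for Mdm2 in its first intron. The share of windows with a match follows from the choice of genes and the genome, and not from these arrays. The 4 genes with a match include Mdm2, Ccng1 and Aen, whose groups did not overlap, with Aen lower in the mutants. They also include Bax, whose groups overlapped, while Trp53inp1, whose groups did not, had no window. A window with a match is shown for each of the 4 genes, with the half-site in capitals and each read 5′ to 3′ on the strand of the gene. They are chr10:117710709-117711008 on the minus strand for Mdm2, chr11:40755237-40755536 on the minus strand for Ccng1, chr7:45466849-45467148 on the minus strand for Bax and chr7:78895677-78895976 on the plus strand for Aen.
Mdm2: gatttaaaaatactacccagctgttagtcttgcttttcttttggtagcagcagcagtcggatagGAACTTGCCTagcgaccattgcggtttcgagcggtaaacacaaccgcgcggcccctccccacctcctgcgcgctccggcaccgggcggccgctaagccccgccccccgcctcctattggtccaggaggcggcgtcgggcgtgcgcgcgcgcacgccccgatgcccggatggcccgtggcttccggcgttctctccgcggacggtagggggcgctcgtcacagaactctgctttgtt
Ccng1: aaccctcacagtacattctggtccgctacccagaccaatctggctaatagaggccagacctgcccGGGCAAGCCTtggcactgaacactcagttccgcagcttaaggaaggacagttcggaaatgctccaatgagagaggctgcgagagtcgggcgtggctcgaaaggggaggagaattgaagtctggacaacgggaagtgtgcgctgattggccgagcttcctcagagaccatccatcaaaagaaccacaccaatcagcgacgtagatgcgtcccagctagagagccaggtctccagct
Bax: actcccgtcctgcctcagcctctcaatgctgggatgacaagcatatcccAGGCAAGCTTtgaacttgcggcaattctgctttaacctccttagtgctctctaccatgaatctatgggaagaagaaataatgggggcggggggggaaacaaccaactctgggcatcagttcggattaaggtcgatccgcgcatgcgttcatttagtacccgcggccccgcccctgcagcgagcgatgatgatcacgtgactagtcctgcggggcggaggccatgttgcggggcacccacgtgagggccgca
Aen: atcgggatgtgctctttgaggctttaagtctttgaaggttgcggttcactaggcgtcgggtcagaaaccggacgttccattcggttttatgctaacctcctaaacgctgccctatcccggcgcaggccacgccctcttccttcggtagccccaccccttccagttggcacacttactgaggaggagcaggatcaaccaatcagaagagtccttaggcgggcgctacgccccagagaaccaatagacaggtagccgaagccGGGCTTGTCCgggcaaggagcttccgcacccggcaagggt
The first base of the half-site lies at -186 from the start site in Mdm2, at -185 in Ccng1 and at -201 in Bax. In Aen it lies at 10, downstream of the start site of this window, and at -121 from the start site of a second, overlapping window.

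Mdm2 and Ccng1 feed back on p53, and Zmat3 is a further target. Mdm2 encodes the ubiquitin ligase that targets p53 for degradation and is itself a p53 target (probe on chromosome 10, 117126010 to 117126069, mm9). Its level was 3.08, 3.05 and 3.08 in controls 1, 2 and 3 and 3.11, 3.16 and 3.32 in mutants 1, 2 and 3. Every mutant lay above the controls, mutant 3 by most, and the controls lay close together (SD 0.016). The difference of 0.12 (SE 0.08, limma, adjusted p = 0.473) did not pass, and it was 0.03 within slide 1, 0.17 within slide 2, 0.06 without mutant 3 and 0.04 with median centring.

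Ccng1 encodes cyclin G1, a p53 target that recruits a phosphatase to Mdm2 (chromosome 11, 40562427 to 40562486). Controls 1, 2 and 3 measured -1.41, -1.36 and -1.55, mutants 1, 2 and 3 measured -1.21, -1.07 and -1.26, and the groups did not overlap. The difference of 0.26 (SE 0.09), a 1.2-fold higher level, was alike within slide 1 (0.20) and slide 2 (0.29) and did not pass over all rows (limma, adjusted p = 0.245). With the authors' log2 values it was 0.16. Zmat3, which encodes an RNA-binding zinc-finger protein induced by p53 (chromosome 3, 32233831 to 32233890), was at 1.28, 1.39 and 1.46 in controls and at 1.19, 1.34 and 1.43 in mutants. Each mutant was a little below its litter's control, but the groups overlapped almost fully (difference -0.06, 95% interval -0.29 to 0.17).

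Trp53inp1 and Sesn2 act in autophagy and in growth control. Trp53inp1 encodes a stress-induced protein that takes part in autophagy and in the phosphorylation of p53. Its brighter probe (chromosome 4, 11101174 to 11101233) read 0.43, 0.32 and 0.40 in controls 1, 2 and 3 and 0.55, 0.95 and 1.04 in mutants 1, 2 and 3. Mutants 2 and 3 were thus well above all controls, and mutant 1 only just. The difference was 0.46 (SE 0.14), or 1.38-fold, with a 95% interval from 0.11 to 0.81, and did not pass over all rows (limma, adjusted p = 0.22, and 0.0955 to 0.549 over the alternatives). It was 0.12 within slide 1 and 0.63 within slide 2, and 0.61 without mutant 1. A second probe that starts 8644 bases away (11092530 to 11092589) shares no base with the first and had a difference of 0.51 (SE 0.14), from -3.25, -3.74 and -3.48 in controls to -2.99, -3.08 and -2.87 in mutants. The summed level of the neuronal markers rose from mutant 1 to mutant 3 (55.4, 70.5, 78.8), as the brighter probe did. The second probe did not, with mutant 2 lowest. For controls 1, 2 and 3 these markers summed to 56.3, 53.6 and 51.4. Both probes, like the markers, were highest in control 1, but both put control 3 above control 2. The part of neuronal RNA in the difference was not tested.

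**Figure D3:**
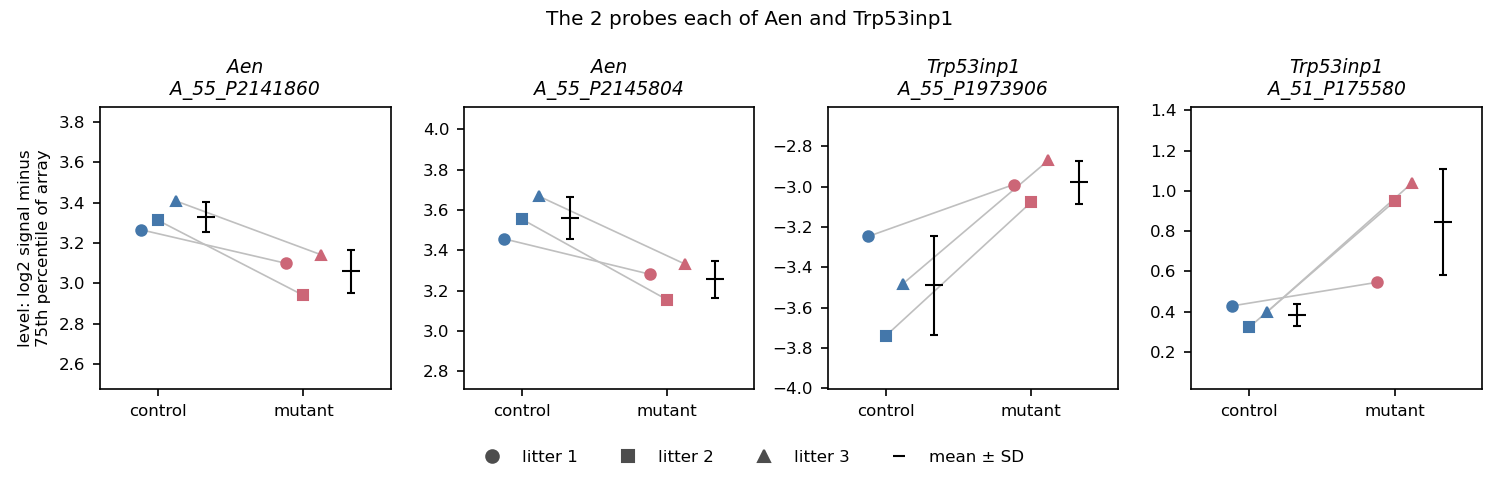
Levels of the 2 probes of Aen (left) and the 2 probes of Trp53inp1 (right) in each embryo, as log2 signal minus the array's 75th percentile, with axes of equal span. Points are embryos, shapes are litters and bars are mean ± SD (n = 3). Both probes of Aen are lower, and both of Trp53inp1 higher, in every mutant than in any control.

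Sesn2 encodes sestrin 2, a stress-induced inhibitor of the growth kinase mTORC1 that p53 and the stress factor Atf4 both induce (chromosome 4, 132048858 to 132048917). Its level was -0.03, 0.22 and 0.13 for controls 1, 2 and 3 and 0.14, 0.60 and 0.44 for mutants 1, 2 and 3. Mutants 2 and 3 lay above the controls while mutant 1 lay within their range, so that the groups overlapped. Each mutant was above its litter's control, by 0.17, 0.38 and 0.31. In the fit without a block, the difference of 0.28 (SE 0.14, 95% interval -0.06 to 0.63) did not pass (limma, adjusted p = 0.374). It was 0.41 without mutant 1 and 0.18 without mutant 2. With litter as a block its SE was 0.075 (limma, unadjusted p = 0.0218, adjusted p = 0.194). With slide as a block its SE was 0.083 (limma, unadjusted p = 0.0208, adjusted p = 0.202). Sesn2 did not pass in these fits either.

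The mitochondrial branch of apoptosis had small differences for Bbc3 and Bax and a wide spread for Pmaip1. Bbc3 encodes Puma, a BH3-only protein that unleashes Bax and Bak at the mitochondrial membrane (chromosome 7, 16903403 to 16903462). Controls measured 0.40, 0.36 and 0.24 and mutants 0.39, 0.52 and 0.36, which overlap (difference 0.09, SE 0.08, 95% interval -0.11 to 0.29), and the difference was 0.04 without control 3 or without mutant 2. Bax, the pore-forming effector itself (chromosome 7, 52717122 to 52717181), measured 2.65, 2.70 and 2.79 for controls and 2.77, 2.79 and 2.67 for mutants. The ranges almost coincide, with the smallest difference in size of the 10 genes (0.03, SE 0.07, 95% interval -0.15 to 0.22), and with median centring it was -0.06.

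Pmaip1 encodes Noxa, a BH3-only protein that antagonises Mcl1, and its probe lies on chromosome 18 from 66625088 to 66625147. Its signal before scaling, on a linear scale, was 146, 59.0 and 44.4 for controls 1, 2 and 3 and 200.0, 45.1 and 42.2 for mutants 1, 2 and 3. The levels were -3.65, -4.65 and -5.02 in controls and -2.72, -4.94 and -4.84 in mutants. Both embryos of litter 1, on slide 1, stood above the other 4, whose levels lay close together in both groups. The spread within groups (SD 1.02, pooled) was at the 98.9th percentile of all rows. The difference of 0.28 (SE 0.69, limma, adjusted p = 0.867) became -0.45 without mutant 1, with control 1 kept. With a block the difference stayed at 0.28, with an SE of 0.26 for litter and 0.24 for slide. The marker list of meninges and head mesenchyme was also highest in the embryos of litter 1 (summed level 28.7 in control 1 and 41.8 in mutant 1, against 13.8 to 21.7 in the other 4), and its part in the level of Pmaip1 was not tested.

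Phlda3, whose product competes with the kinase Akt for membrane lipids (chromosome 1, 137665642 to 137665701), was at 0.31, 0.63 and 0.51 in controls and at 0.65, 0.80 and 0.62 in mutants. Control 2 lay among the mutants, so that the groups overlapped, while within litters the mutant was higher by 0.34, 0.18 and 0.11. The fitted difference was 0.21 (SE 0.11, 95% interval -0.06 to 0.48, limma, adjusted p = 0.389), and 0.12 without control 1.

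Aen, which encodes an exonuclease that p53 induces and that degrades nucleic acids in apoptosis, went the other way. Its brighter probe (chromosome 7, 86053207 to 86053266) read 3.46, 3.55 and 3.67 in controls 1, 2 and 3 and 3.28, 3.15 and 3.33 in mutants 1, 2 and 3. Every mutant lay below every control. The difference of -0.30 (SE 0.09, 95% interval -0.52 to -0.08) did not pass over all rows (limma, adjusted p = 0.213, and 0.105 to 0.558 over the alternatives), and was -0.18 within slide 1 and -0.37 within slide 2. The other probe (86053197 to 86053256) had a difference of -0.27 (SE 0.09). It shares 50 of its 60 bases with the first, so that both measure nearly the same stretch. Aen and Trp53inp1, both p53 targets, thus had intervals on opposite sides of 0.

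In the authors' deposited table, 0 of the 12 probes have an fdr under 0.05, against 357 of the 11500 probes with an fdr, or 3.1%. An fdr is given for 5 of the 12, and the lowest in the authors' deposited table are 0.0806 for Aen and 0.0895 for Trp53inp1. The log2 ratios in the authors' deposited table have the same sign as the differences above for all 12 probes, and range from -0.289 (Aen) to 0.464 (Trp53inp1). These values derive from the same 6 arrays and are no separate evidence.

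The other genes of the pathway were described by 5 lists, and 0 genes of any of them passed over all rows (limma, adjusted p). For the counts of each list at an unadjusted p under 0.05, the shares over all rows were 9.5% higher and 7.44% lower. Of p53 and its regulators, 14 of 15 genes were measured above background, 3 with positive and 11 with negative differences. The median difference was -0.07, and 1 was higher and 2 were lower at an unadjusted p under 0.05. Trp53 itself measured -1.58 ± 0.15 among controls and -1.64 ± 0.11 among mutants (SD, n = 3), a difference of -0.06 (SE 0.11). Mdm4, the partner of Mdm2 in restraining p53, differed by -0.03 (SE 0.22). The 2 regulators of smallest p were Chek2, a checkpoint kinase that phosphorylates p53 (-0.39, SE 0.11, limma, adjusted p = 0.206), and Trp63, a relative of p53 (0.20, SE 0.07).

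The list of other p53 targets had as many positive as negative differences. Of 28 genes, 26 were measured, 13 with positive and 13 with negative differences, with a median of -0.00075, and 2 were higher and 2 lower at an unadjusted p under 0.05. Cdkn1a, which encodes the cell-cycle inhibitor p21 and is the target most used as a marker of p53 activity, was at -2.82, -2.39 and -2.50 in controls and at -2.04, -1.81 and -2.45 in mutants. Mutants 1 and 2 lay above all controls and mutant 3 among them (difference 0.47, SE 0.20, limma, adjusted p = 0.309). Gadd45a, a growth arrest gene, differed by -0.15 (SE 0.10), and the antiproliferative gene Btg2 by 0.19 (SE 0.13). The smallest p belonged to Plk2, a polo-like kinase (0.68, SE 0.15, limma, adjusted p = 0.161, with controls at -2.05 ± 0.29 and mutants at -1.38 ± 0.02, SD, n = 3), and to Cd82, a tetraspanin (-0.43, SE 0.10, limma, adjusted p = 0.173).

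In the Bcl2 family 12 of 13 further genes were measured, with 1 higher and 3 lower at an unadjusted p under 0.05 and a median difference of -0.02. The survival genes had differences of 0.09 (SE 0.12) for Bcl2, 0.01 (SE 0.07) for Bcl2l1 and -0.04 (SE 0.09) for Mcl1. The effector Bak1 differed by -0.06 (SE 0.07), and Bcl2l11, which encodes the BH3-only protein Bim, differed by -0.16 (SE 0.10). Hrk, a BH3-only gene known from neurons, had the lowest difference of the 5 lists. Its level was -3.02, -2.79 and -2.44 in controls 1, 2 and 3 and -5.07, -3.88 and -4.36 in mutants 1, 2 and 3. Every mutant was far below every control, mutant 1 most, and the difference of -1.69 (SE 0.33) did not pass (limma, adjusted p = 0.144, and 0.0648 to 0.473 over the alternatives). With normexp background correction it was -0.96. Bid, which links death receptors to mitochondria, had a difference of -0.50 (SE 0.11, limma, adjusted p = 0.158).

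Of 18 genes of the apoptosome, the caspases and their inhibitors, all were measured, with 1 higher and 1 lower at an unadjusted p under 0.05 and a median of -0.01. Apaf1, the scaffold of the apoptosome, differed by -0.02 (SE 0.11) and the initiator Casp9 by 0.11 (SE 0.09). Dffb, the nuclease that cuts chromatin in apoptosis, differed by -0.23 (SE 0.07, limma, adjusted p = 0.227).

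Sesn2, Pmaip1 and Bbc3 can also be induced by the integrated stress response through Atf4, and 12 genes of that response were measured, 10 of them with negative differences (median -0.10), where 9474 of all 21067 rows were negative. At an unadjusted p under 0.05, 0 of the 12 were higher and 3 were lower, against 9.5% and 7.44% of all rows. Atf4 differed by -0.10 (SE 0.14), Ddit3, which encodes the stress factor Chop, by 0.09 (SE 0.15) and the pseudokinase Trib3 by -0.36 (SE 0.39). The smallest p belonged to Psat1, an enzyme of serine synthesis (-0.57, SE 0.10, limma, adjusted p = 0.128), and to asparagine synthetase, Asns (-0.49, SE 0.09, limma, adjusted p = 0.145). Psat1 was at 3.78, 3.80 and 4.04 in controls and at 3.24, 3.28 and 3.41 in mutants, without overlap, and passed under 1 of 17 alternatives (adjusted p = 0.0492 with a variance trend and robust variance, up to 0.438 over the others).

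**Figure D4:**
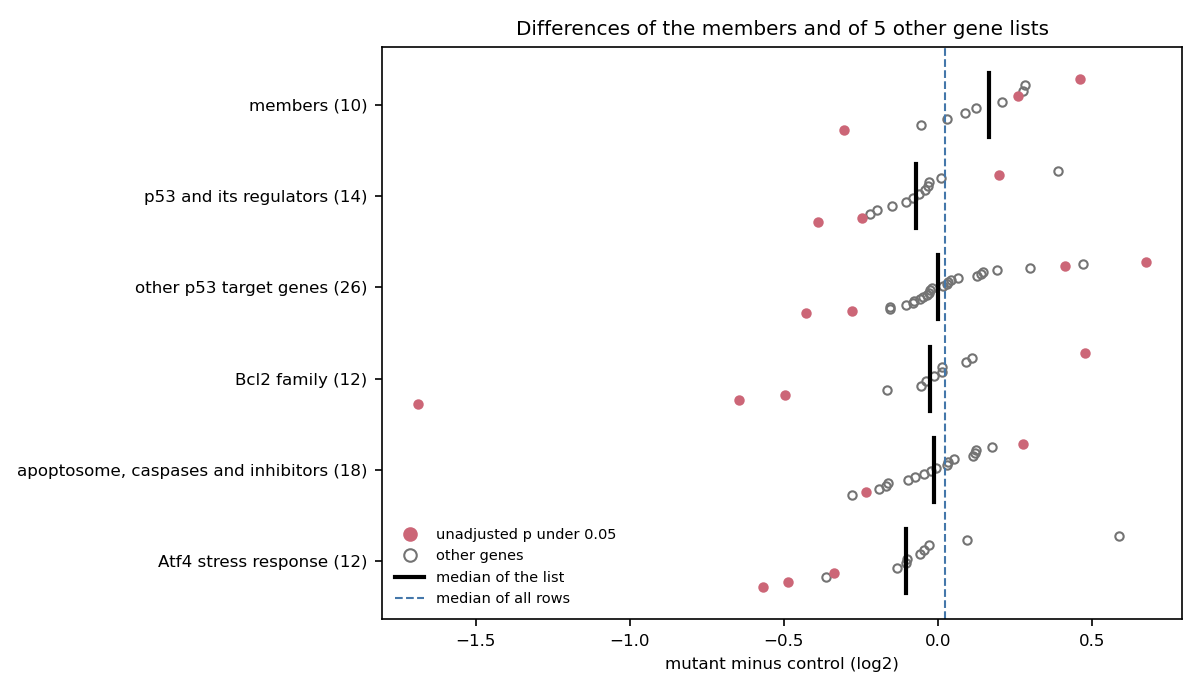
Differences, mutant minus control on the log2 scale, of the 10 genes (top row) and of the measured genes of 5 other lists (number in parentheses). Filled points have an unadjusted p under 0.05, black bars are list medians and the dashed line is the median of all rows (0.02). The single point near -1.69 is Hrk.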

How the data were processed

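Expression was measured on 1-colour Agilent arrays. The deposited scanner files hold linear intensity values for every spot, extracted by the authors with Feature Extraction 10.7.3.1 (grid build mm9) and background-subtracted within the array, per the file headers. A deposited table from the authors holds log2 values by group, with a log2 ratio, p-value and fdr (p-value unit), and how its arrays were equalised is not given in the sources used. The submitters' processing notes name limma. The flags for spots above background and outlier spots are other deposited columns, per the file headers.

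Outlier spots were left out, repeat spots of 1 probe averaged, and processed signals turned to log2 and centred on the array's 75th percentile. Probes above background on at least 3 arrays were kept, and of a gene's probes the brightest (21067 rows). Probes were named by accession in a RefSeq table (GRCm38.p6) or by the authors' symbol. Groups were compared across all genes with limma 3.58.1 in R 4.3.3 (lmFit, eBayes, Benjamini-Hochberg, two-sided, threshold 0.05), with a fit tested on simulated data. Figures used matplotlib 3.10.9. Samples are single embryos. With 3 arrays in a group, their number limits precision.

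The titles give litters, which pair the embryos, and littermates' departures from their group's mean had correlations of 0.308, 0.357 and 0.107 (litters 1, 2 and 3), against -0.41 to 0.109 for embryos of different litters, so that litter 3 stood no closer than the nearest pair across litters. The members and lists were chosen with earlier results of these data known. All 10 members are named, and of each list a fixed set of genes and the 2 of smallest p, some of which are not reported here. Alternatives were normexp (offset 50, on the median signal, the mean signal not being used here), quantile or median scaling, no filter or a filter on all 6 arrays, every probe, probes averaged by gene, a block for litter or for slide, variance trend with robust variance, the authors' log2 values, a threshold of 0.1, single slides and omission of each embryo. Those for genes of the lists were added after seeing the data.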

Additional observations from a re-analysis of the deposited data

How the results depend on the processing

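The count of 0 of the 10 genes held under all 18 alternatives with a test (limma, smallest adjusted p 0.0955 to 0.549, with 1 to 4 of the 10 at an unadjusted p under 0.05). Litter as a replicate block changed no call of a named gene (0 of 10 genes). At an unadjusted p under 0.05 there were 4 genes with this block, namely Trp53inp1, Ccng1, Aen and Sesn2. Over the whole table, the 7 rows that passed became 149 with normexp, 15 with quantile normalization, 23 with median centring, 0 without a filter (7916 at an unadjusted p under 0.05), 26 with a filter on all arrays, 2 with probes averaged by gene, 0 with litter as a block (4181 at an unadjusted p under 0.05), 0 with slide as a block (4149), 143 with trend and robust variance, 22 with the authors' log2 values, 80 at a threshold of 0.1, and 0 to 1 with an embryo left out (1912 to 4513 at an unadjusted p under 0.05). The cause of these shifts was not tested.

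The median difference of the 10 genes, 0.166, was 0.0787 with median centring, which also moved the median of all rows from 0.0245 to -0.0631. It was 0.123 with the authors' log2 values, 0.119 within slide 1 and 0.101 (without control 3) to 0.18 with an embryo left out. Of the 10 genes, 4 changed sign, all with intervals that span 0: Bax (-0.056 with median centring, -0.0072 with normexp, -0.0126 within slide 2), Bbc3 (-0.0118 within slide 1), Zmat3 (0.00812 without mutant 1) and Pmaip1 (-0.447 without mutant 1, -0.0167 without control 3, -0.0499 within slide 2). The differences of Trp53inp1, Aen, Ccng1, Mdm2, Sesn2 and Phlda3 kept their sign in all 19 alternatives and slides. Among named genes of the other lists, Trp53, Mdm4, Bcl2, Bcl2l1, Bcl2l11, Mcl1, Apaf1 and Ddit3 changed sign under at least 1 alternative.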
